A study of Homo sapiens with 18 samples.

Results

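Keratins are the intermediate filament proteins of epithelial cells, and 10 of their genes are described here: KRT4, KRT13, KRT15, KRT5, KRT14, KRT6A, KRT16, KRT17, KRT7 and KRT18. They were chosen by gene symbol from the expression tables of the 2 lines, which list 15358 genes (MCF10A) and 15257 genes (hTERT RPE-1), 16715 in all. KRT4 lies at chr12:52806549-52814116 and KRT13 at chr17:41500981-41505705 (hg38, both on the minus strand). All 10 were listed in MCF10A, and KRT15, KRT7 and KRT18 were listed in hTERT RPE-1. KRT4 and KRT13 were selected on their own readout, because they stood among the lowest log2 fold changes in MCF10A. KRT4 was in place 6 from the lowest of 14726 genes tested with miR-28 and in place 2 with miR-708, and KRT13 was in places 10 and 8. The other 8 were added as relatives from the same family. The differences of these 10 keratins from control in MCF10A are therefore given as a description with no p-value, and their tests are kept for hTERT RPE-1, for one mimic against the other and for the difference between the lines.

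MCF10A is a near-normal line of breast epithelial cells, and hTERT RPE-1 is a line of retinal pigment epithelial cells immortalised with telomerase (hTERT). Cells of each line received 30 nM of 1 of 3 reagents for 72 h: a non-targeting siRNA (siNT, the negative control), the hsa-miR-28-5p mimic or the hsa-miR-708-5p mimic, called miR-28 and miR-708 below. Polyadenylated RNA was sequenced in biological triplicate, with replicates 7, 8 and 9 for MCF10A and 1, 2 and 3 for hTERT RPE-1, so there were 18 libraries. Each line stands for a single cell source, and the control is an siRNA rather than a mimic. The p-values measure the spread between these libraries.

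The values are normalised read counts: estimated reads per gene divided by a size factor of the library. The MCF10A libraries held 19.4–31.7 M gene reads and the hTERT RPE-1 libraries 23.8–40.4 M. A count of 3 reads corresponded to a value of 2.49–4.02 in the former and 2.35–4.40 in the latter. No listed value was 0, so a gene with a 0 in any library may be unlisted, and nothing is said here of the level of an unlisted gene. Differences are log2 fold changes on the scale of log2(value + 1) with their standard error (SE), and a gene was called at a Benjamini-Hochberg adjusted p under 0.05 from limma over all genes tested in the line. In MCF10A, 12.0% of 14726 genes were called lower and 10.7% higher with miR-28, against 17.3% and 15.5% with miR-708. In hTERT RPE-1, 23.5% of 14527 genes were called lower and 23.3% higher with miR-28, against 31.2% and 30.9% with miR-708. With every library rescaled to the same total, the median over the genes tested moved to 0.12 (miR-28) and 0.14 (miR-708) for MCF10A, and to 0.09 and 0.32 for hTERT RPE-1. The share of calls that were higher then went from 47.1% to 66.2% and from 47.3% to 67.6% in MCF10A, and from 49.9% to 59.4% and from 49.7% to 71.9% in hTERT RPE-1.

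Keratins are obligate partners. A type II (basic) chain pairs with a type I (acidic) chain, and epithelia are recognised by the pairs they make. KRT5 and KRT14 form the pair of basal cells in stratified epithelia and in the basal layer of the breast, and KRT8 and KRT18 form the pair of simple epithelia. KRT4 and KRT13 pair in the layers above the basal one in mucosal epithelia such as that of the oesophagus. KRT6A pairs with KRT16 or KRT17 in wounded or stressed epithelium, KRT15 is a type I chain of basal and progenitor cells, and KRT7 is a type II chain of glandular and simple epithelium. The type II genes and KRT18 lie in a cluster on chromosome 12, and the other type I genes lie in a cluster on chromosome 17.

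The mimics are shown first, because they share the seed (bases 2 to 8, in capitals) through which a microRNA pairs with its targets. They are written from the first base as listed for the mimics used, and the RefSeq sequence of miR-708 is the same.
hsa-miR-28-5p: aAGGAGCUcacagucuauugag
hsa-miR-708-5p: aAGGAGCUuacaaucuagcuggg
Over the 22 bases that both have, 16 are identical. Counted from the 5′ end with the base of miR-28 first, the others are C9U, G13A, U18G, U19C, G20U and A21G, and miR-708 is 1 base longer.

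The complement of the seed was searched on the transcript strand only, as AGCTCCT (7 bases), GCTCCTA (7 bases, with an A opposite base 1 of the mimic), AGCTCCTA (8 bases, which contains both) and GCTCCT (6 bases, contained in all of them). The transcripts were the MANE Select ones of GENCODE 44 on hg38. Of the 10 keratins, 0 held a match of 7 or 8 bases in the 3′ UTR, and 2 (KRT6A and KRT16) held one of 6 bases. Among the 12826 genes tested in MCF10A with such a transcript, 18.7% held a match of 7 or more bases and 35.7% one of 6 or more. The 3′ UTRs of the keratins are short, 64 to 544 bases against a median of 1352.5. In the coding part, 3 of the 10 held a match of 7 or 8 bases, where 23.8% of those genes did, and 6 held one of 6 or more bases, where 45.8% did. The 3 longest matches are given because they fall in KRT4, KRT13 and KRT16, with the match in capitals and 9 bases of transcript on each side.
KRT4, exon 1, chr12:52813628-52813634, minus strand: aacagatcaAGCTCCTcaacaacaa
KRT13, exon 1, chr17:41505526-41505532, minus strand: cgcctgcagAGCTCCTctgccagct
KRT16, exon 8, chr17:41609936-41609943, minus strand: cagggccagAGCTCCTAgaactgagc
The last 2 bases of the match in KRT16 are the first bases of its stop codon. KRT14, KRT17 and KRT7 held a coding match of 6 bases, and KRT15, KRT5 and KRT18 held none in the coding part. A match is a sequence description and not a measured site.

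Before any mimic effect, the control libraries of MCF10A set the order of the levels. Per kilobase of merged exons, KRT5 came first with a level of 20344 ± 2083 (SD, n = 3), followed by KRT14 with 15953 ± 2396 and KRT6A with 15843 ± 1053. KRT17 had a level per kilobase of 8067 ± 408 and KRT7 one of 4596 ± 827. KRT15, KRT16 and KRT18 followed at 2164 ± 670, 1660 ± 210.8 and 1542 ± 128. KRT4 (976 ± 277) and KRT13 (359.7 ± 90.5) had the lowest levels per kilobase of the 10. Neighbours from KRT5 to KRT6A and from KRT15 to KRT18 overlapped in their libraries, and the other neighbours did not. The order and the overlaps were set out for this length only and can change with another. Merged exons span 5969 bases for KRT15 and 4133 for KRT5, against 1712 and 2238 in their MANE Select transcripts. For KRT14 the lengths are 2255 and 1636, and for KRT7 they are 3999 and 1625.

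KRT4, a type II keratin, had normalised read counts of 3079, 3434 and 1912 in the siNT libraries 7, 8 and 9 of MCF10A. With miR-28 they were 414, 523 and 221, and with miR-708 they were 220.1, 208 and 135. Every mimic library lay below every control library, and the lowest value of each group was in replicate 9. The mean with miR-28 was 13.7% of that with siNT (log2 fold change -2.90, SE 0.31), and the mean with miR-708 was 6.68% (-3.89, SE 0.31).

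KRT13, a type I keratin, read 1329, 1009 and 806 with siNT, 215, 206 and 79.8 with miR-28, and 217, 122 and 33.4 with miR-708. The mimic libraries again lay below all controls. The 2 mimic groups overlapped each other, and replicate 9 was lowest in all 3 groups. The means were 15.9% and 11.9% of the control mean, with log2 fold changes of -2.74 and -3.40 (SE 0.57).

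KRT14, the basal type I chain, had values of 32508, 42198 and 33214 with siNT. They were 12599, 10216 and 10013 with miR-28, and 9341, 7425 and 5602 with miR-708. All 3 groups were separate. The means were 30.4% and 20.7% of the control mean, with log2 fold changes of -1.71 and -2.29 (SE 0.18). Its type II partner KRT5 had a smaller difference. KRT5 read 74171, 89713 and 88362 with siNT, 56929, 59604 and 66629 with miR-28, and 48844, 42285 and 43034 with miR-708. Its groups were separate as well, at 72.6% and 53.2% of the control mean (log2 fold changes of -0.46 and -0.91, SE 0.15).

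KRT15 had its lower values with miR-708. The controls read 17373, 9646 and 11731, the miR-28 libraries 13854, 9793 and 7734, and the miR-708 libraries 8306, 5140.5 and 3311. The miR-28 libraries overlapped the controls (log2 fold change -0.30, SE 0.32), whereas the miR-708 libraries lay below them (-1.27, SE 0.32). Replicate 7 was highest in each group.

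KRT6A, KRT16 and KRT17, the keratins of wounded epithelium, differed less. KRT16 read 4378, 4446 and 3509 with siNT, 4533, 4952 and 4734 with miR-28, and 2756.5, 2639.6 and 2073 with miR-708 (log2 fold changes of 0.21 and -0.73, SE 0.13). Its miR-28 libraries lay above the controls and its miR-708 libraries below them. KRT17 read 25532, 23794 and 23178 with siNT, and its means with miR-28 and miR-708 were 78.5% and 78.2% of that (-0.35 and -0.36, SE 0.13). KRT6A means were 82.6% and 85.6% of the control mean (-0.27 and -0.22, SE 0.12). Reads of KRT6A, KRT6B and KRT6C are hard to tell apart, as are those of KRT14, KRT16 and KRT17. With the 3 KRT6 genes summed, an alternative added after the data were seen, the log2 fold changes were -0.26 and -0.24.

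KRT7 and KRT18 are the keratins of simple epithelium among the 10. In MCF10A, KRT7 read 22128, 17130.4 and 15875 with siNT, and its log2 fold changes were -0.24 and -0.21 (SE 0.17). Without the miR-708 library 7, that with miR-708 was -0.40 and was called. KRT18 read 4631, 5166 and 4400 with siNT, 4241, 4424 and 5255 with miR-28, and 5255, 4325 and 4880 with miR-708. All 3 groups of KRT18 overlapped (log2 fold changes of -0.03 and 0.03, SE 0.11).

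**Figure D1:**
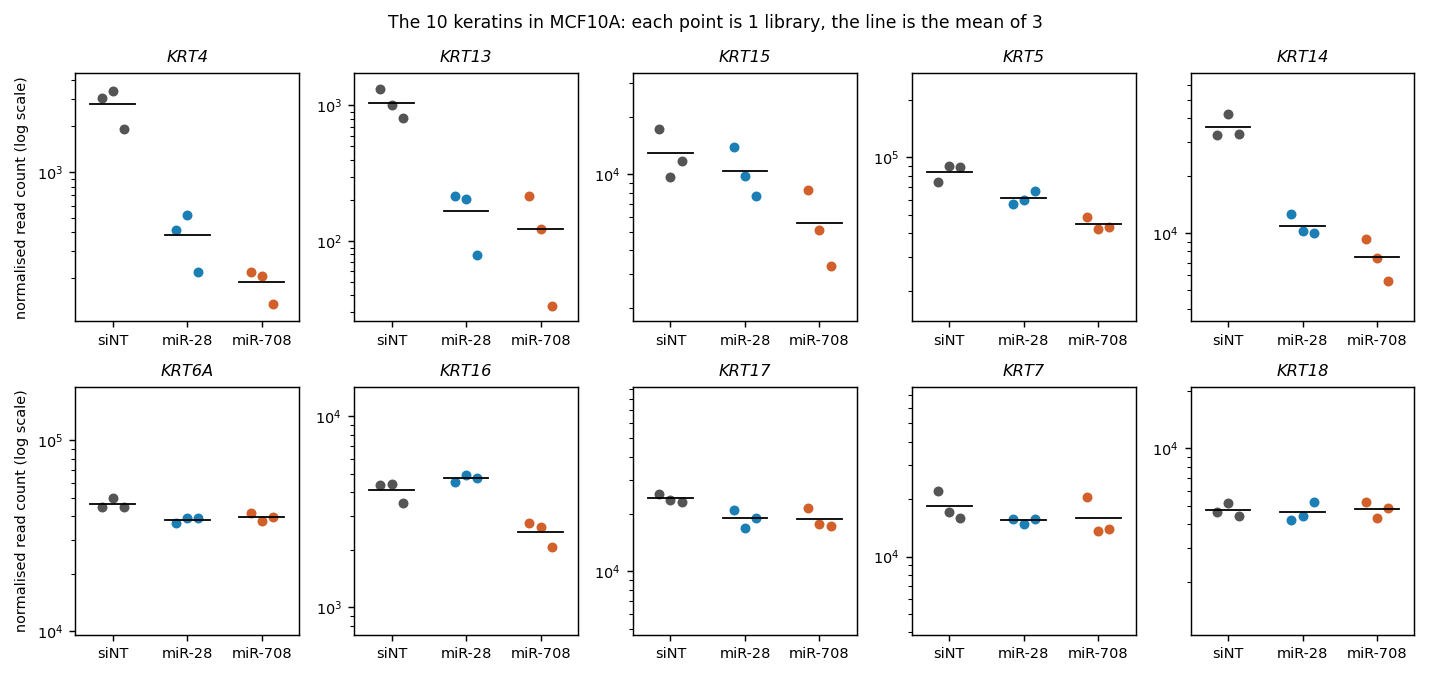
Normalised read counts (log scale) of the 10 keratins in the 9 MCF10A libraries, by treatment. Each point is 1 library and each line the mean of 3. In KRT4, KRT13 and KRT14 all mimic libraries lie below all controls, and in KRT18 the groups overlap.

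By the call rule, 4 of the 10 were lower with miR-28 (KRT4, KRT13, KRT5 and KRT14), where 12.0% of all genes were, and 7 were lower with miR-708 (those 4 with KRT15, KRT16 and KRT17), where 17.3% were. None of the 10 was called higher. Since this contrast chose KRT4 and KRT13, nothing is read from these counts. The calls of KRT5 with miR-28 and of KRT17 with miR-708 were close to the threshold and were lost under 12 and 11 of 15 alternative settings. KRT17 with miR-28, not called, was called when the replicate number was fitted as a block, which the pairing of these libraries allows. The median log2 fold change of the 10 was -0.33 with miR-28 and -0.82 with miR-708, beside 0.01 and -0.00 over all genes tested.

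The mimics were then compared with each other. The choice of KRT4 and KRT13 did not use this contrast, but in MCF10A it used the same mimic libraries. For KRT4 and KRT13 the values and p-values below are therefore not independent of that choice. In MCF10A, 1 of the 10 was called between the mimics, where 1.55% of the 14726 genes were. KRT16 was lower with miR-708 than with miR-28, with a log2 difference of -0.94 (SE 0.13, limma adjusted p = 0.00186), and its miR-708 libraries all lay below its miR-28 libraries. KRT4 had a log2 difference of -0.98 (95% interval -1.67 to -0.30, adjusted p = 0.171). KRT15 had one of -0.96 (-1.66 to -0.27, adjusted p = 0.183), KRT14 one of -0.58 (-0.97 to -0.18, adjusted p = 0.167) and KRT5 one of -0.45 (-0.78 to -0.12, adjusted p = 0.195). These intervals are not adjusted for the number of genes. KRT13 had a difference of -0.65 with a wide interval (-1.90 to 0.59, adjusted p = 0.614). Leaving out 1 library moved some of these calls: KRT4 was called without the miR-28 library 9 (-1.34, adjusted p = 0.0486), and KRT14 and KRT15 without the miR-708 library 7 (-0.75 and -1.30, adjusted p = 0.0415 and 0.0438). With the replicate number fitted as a block, KRT4, KRT15 and KRT14 were called with all libraries (limma adjusted p = 5.33e-04, 0.00177 and 0.0433), so 4 of the 10 were. For KRT6A, KRT17, KRT7 and KRT18 the log2 differences lay between -0.01 and 0.06, and the intervals reached from -0.34 to 0.39.

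In hTERT RPE-1, KRT18 had by far the highest level per kilobase of the 3 listed keratins, 4123 ± 306 (SD, n = 3) with siNT against 122 ± 26.3 for KRT7 and 4.27 ± 0.784 for KRT15. All 3 were called with each mimic, 1 higher and 2 lower, where 23.3% and 23.5% of genes were called higher and lower with miR-28 and 30.9% and 31.2% with miR-708.

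KRT15 rose in hTERT RPE-1. Its normalised read counts were 26.8, 20.3 and 29.3 with siNT, 73.1, 142 and 104 with miR-28, and 188, 274 and 205 with miR-708. The 3 groups did not overlap. The log2 fold change was 1.99 with miR-28 (SE 0.26, limma adjusted p = 1.9e-04) and 3.07 with miR-708 (adjusted p = 4.66e-06), from a control mean of 25.5.

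KRT18 fell with both mimics. The controls read 13237, 13155 and 11569.8, the libraries with miR-28 6153, 4600.3 and 5784, and the miR-708 libraries 3475, 2918 and 3422. Each group was separate from the others. The log2 fold change was -1.21 with miR-28 (SE 0.12, limma adjusted p = 3.11e-05) and -1.95 with miR-708 (adjusted p = 5.47e-07).

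KRT7 fell as well, from 576, 522 and 372 with siNT to 163, 173 and 174 with miR-28 and to 158, 147 and 97.9 with miR-708. Both mimic groups lay below the controls. The log2 fold change was -1.50 with miR-28 (SE 0.21, limma adjusted p = 2.42e-04) and -1.86 with miR-708 (adjusted p = 2.54e-05). The annotated span of KRT7 overlaps that of KRT86 on the same strand, so some reads there may be credited to either. The strand used in counting is not given in the sources used here, so reads of KRT7 and of the antisense gene KRT7-AS cannot be told apart. KRT7-AS also fell (-1.36 and -2.01, SE 0.39, adjusted p = 0.0159 and 0.00118), from a mean of 63.2 with siNT to 25.6 and 15.7.

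Between the mimics in hTERT RPE-1, 2 of the 3 were called, where 21.2% of the 14527 genes were. KRT18 was lower with miR-708 than with miR-28 (log2 difference -0.75, SE 0.12, limma adjusted p = 0.00281). KRT15 was higher with miR-708 (1.09, SE 0.26, adjusted p = 0.0161), but not without the miR-28 library 3 (1.10, adjusted p = 0.0518) or the miR-708 library 2 (0.93, adjusted p = 0.0609). KRT7 had a difference of -0.37 (95% interval -0.82 to 0.09, adjusted p = 0.235).

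**Figure D2:**
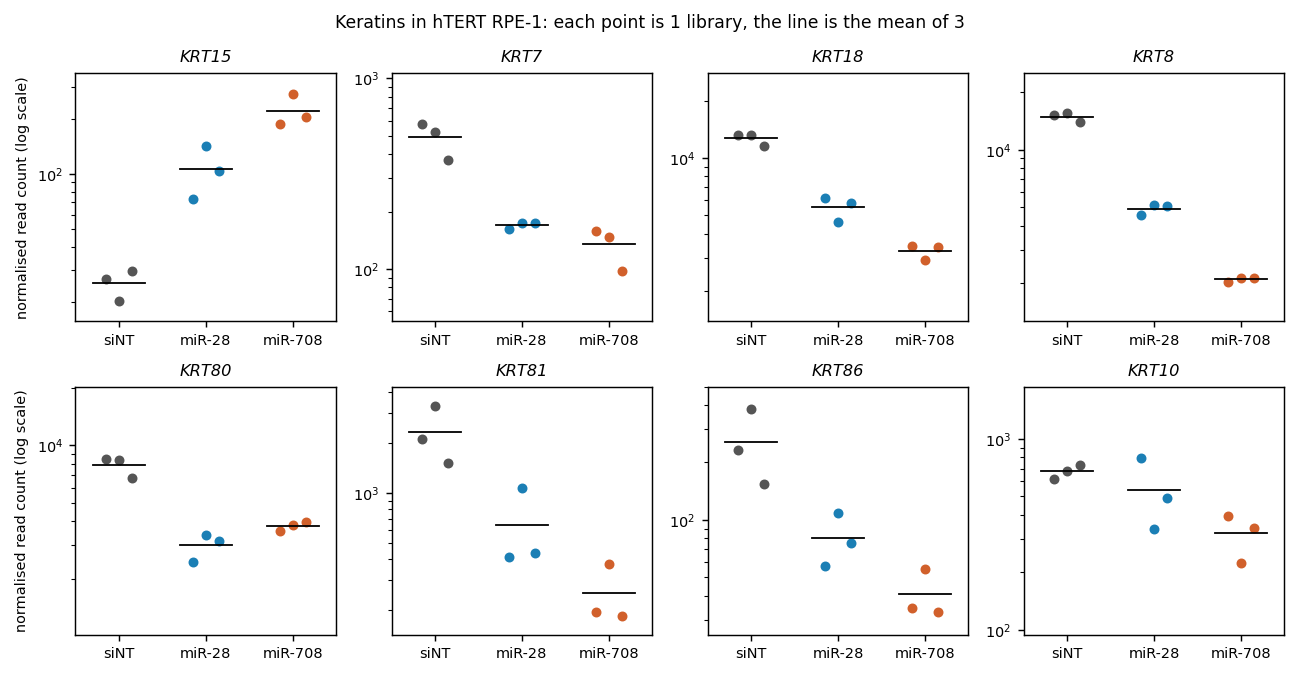
Normalised read counts (log scale) of 8 keratins in the 9 hTERT RPE-1 libraries, by treatment. Each point is 1 library and each line the mean of 3. KRT15 lies higher with each mimic than in the controls, and KRT7, KRT18, KRT8, KRT80, KRT81 and KRT86 lie lower in every mimic library.

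The responses of the 2 lines were compared over the 13339 genes tested in both, of which 23.4% were called for miR-28 and 39.8% for miR-708. All 3 keratins differed between the lines under each mimic. KRT15, KRT7 and KRT18 were added as relatives with earlier results known, and the MCF10A side of the comparison is the contrast that chose KRT4 and KRT13. The log2 fold change of KRT15 in hTERT RPE-1 exceeded that in MCF10A by 2.29 with miR-28 (SE 0.41, limma Benjamini-Hochberg adjusted p = 5.59e-04) and by 4.34 with miR-708 (adjusted p = 1.33e-07). The response of KRT18 was lower in hTERT RPE-1, with differences of -1.18 (SE 0.17, adjusted p = 4.9e-05) and -1.98 (adjusted p = 1.98e-08). That of KRT7 was lower too, with differences of -1.26 (SE 0.27, adjusted p = 0.00214) and -1.65 (adjusted p = 6.3e-05). The lines were scaled in separate tables, so their levels are not set against each other.

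**Figure D3:**
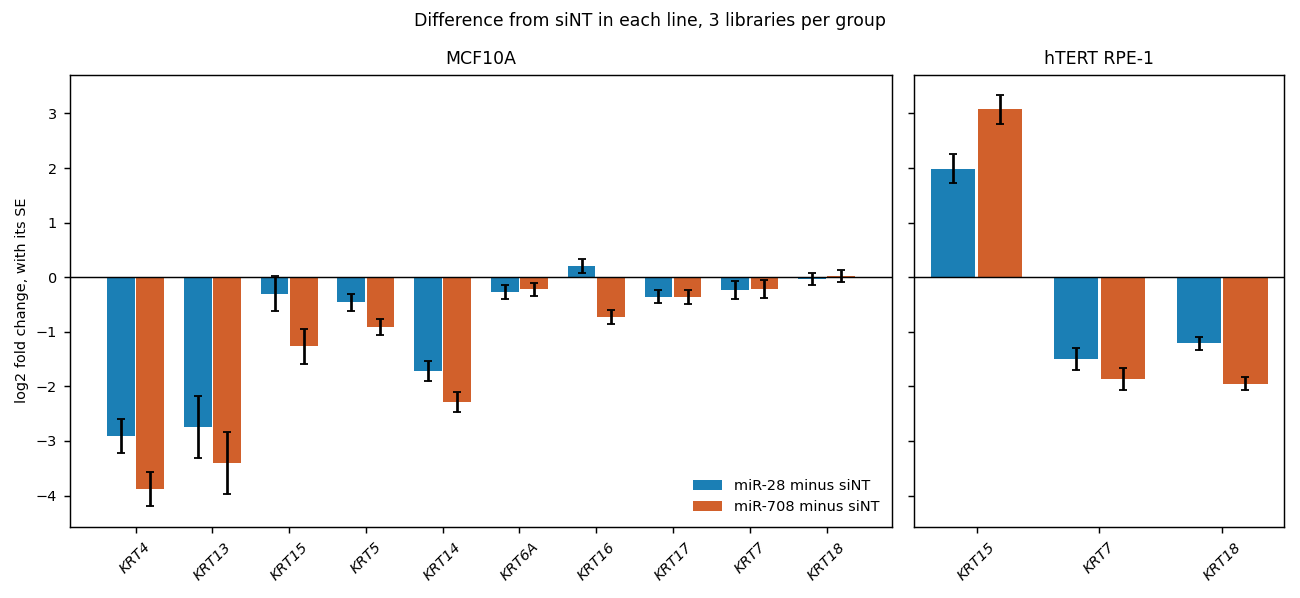
Log2 fold change of each mimic against siNT, with its SE, for the 10 keratins in MCF10A and the 3 listed in hTERT RPE-1. KRT4 and KRT13 have the lowest bars in MCF10A, and KRT15 is below 0 in MCF10A and above 0 in hTERT RPE-1.

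The other keratins give the setting. In hTERT RPE-1, all 4 other type II keratins listed (KRT8, KRT80, KRT81 and KRT86) were called lower with each mimic, where 23.5% and 31.2% of genes were. They stayed so with libraries rescaled to the same total. KRT8, the partner of KRT18, read 15170.4, 15598 and 14031 with siNT, 4533, 5129.5 and 5099 with miR-28, and 2033, 2117 and 2125 with miR-708. Its groups were widely separate, and it fell (log2 fold changes of -1.60 and -2.83, SE 0.08, limma adjusted p = 5.62e-07 and 1.2e-08). It also fell further with miR-708 than with miR-28 (-1.23, adjusted p = 6.62e-05). KRT80, a type II keratin linked to differentiation, fell (-1.40 and -1.05, SE 0.13), as did KRT81, a hair keratin (-1.91 and -3.19, SE 0.41). KRT86 fell (-1.61 and -2.56, SE 0.35), but it overlaps KRT81 and shares much of its sequence. The annotated span of KRT86 also overlaps that of KRT7 on the same strand. KRT10, the type I keratin of the upper epidermis, fell with miR-708 (-1.11, SE 0.28, adjusted p = 0.00593) and was not called with miR-28 (-0.41). KRT34 had a control mean of 4.16, near the value of 3 reads. Its log2 fold changes were 0.22 with miR-28, not called, and 2.27 with miR-708 (SE 0.73), called higher. With controls this low, KRT34 could enter the fit only through mimic libraries. The entry rule thus favoured a rise, so nothing is read from that call and no p-value is given.

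KRT8 and KRT18 overlap at one end of their gene models on opposite strands, so some reads may be credited to either. KRT8 carries 4 matches of 7 bases to the seed in its coding part and none in its 3′ UTR, and KRT80 carries 2 in its 3′ UTR.

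In MCF10A, 0 of 8 other type II keratins tested and 1 of 6 other type I keratins were called with miR-28, and 0 and 0 with miR-708. Of all genes, 10.7% and 12.0% were called higher and lower with miR-28, and 15.5% and 17.3% with miR-708. The 1 called was KRT12, a type I keratin known from the cornea, at a low level (8.38, 11.8 and 7.30 with siNT, and 36.2, 18.2 and 18.7 with miR-28, log2 fold change 1.28, SE 0.42). With controls this low, KRT12 could enter the fit only through mimic libraries. The entry rule thus favoured a rise, so nothing is read from that call. KRT81 read 38586, 23555 and 28962 with siNT (log2 fold changes of -0.39 and -0.64, SE 0.26) and was highest in replicate 7 of each group. KRT8 had log2 fold changes of -0.10 and -0.20 (SE 0.22). KRT80 had 0.63 and 0.24 (SE 0.23), and it was the 1 other type II keratin called higher with miR-28 when libraries were rescaled to the same total. KRT10, KRT6B, KRT6C, KRT86 and KRT23 were not called with either mimic. The medians of the other type I keratins, -0.17 and -0.03, changed sign with that rescaling (0.19 and 0.15 over the 5 then tested).

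The make-up of the keratin pool was set out per kilobase of merged exons over the 25 keratins listed in MCF10A and the 9 in hTERT RPE-1. The 25 made 1.002–1.076% of all reads on genes in the MCF10A controls, 0.781–0.809% with miR-28 and 0.641–0.793% with miR-708. In hTERT RPE-1 the 9 made 0.1005–0.1159%, 0.0415–0.0470% and 0.0351–0.0359%. KRT4 and KRT13 together were 1.35% ± 0.299 (SD, n = 3) of the pool with siNT in MCF10A, 0.280% ± 0.115 with miR-28 and 0.176% ± 0.0581 with miR-708. KRT5 and KRT14 were 36.8% ± 3.25, 28.7% ± 1.16 and 23.6% ± 0.839. The share of KRT6A, KRT16 and KRT17 was 25.9% ± 0.207 with siNT, 31.2% ± 0.410 with miR-28 and 35.05% ± 2.97 with miR-708, and no library of a mimic overlapped the controls. Shares are relative to a pool that was smaller with the mimics. The log2 fold changes of KRT6A and KRT17 were negative with each mimic, and that of KRT16 was negative with miR-708 only. In hTERT RPE-1, KRT8 and KRT18 were 64.2% ± 3.40, 64.7% ± 5.63 and 52.3% ± 2.61, and KRT80 was 18.3% ± 0.786, 17.7% ± 2.93 and 33.1% ± 1.66. The value of KRT80 itself was lower with each mimic. These shares depend on the length used: the merged exons of KRT8 span 6881 bases and its MANE Select transcript 1784. For KRT80 the lengths are 4364 and 3873, so a transcript length would raise KRT8 against KRT80. With the longest transcript as the length, 16 of 39 shares moved by more than 1 SD, and the KRT5 share with siNT was 26.5% in place of 20.7%.

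**Figure D4:**
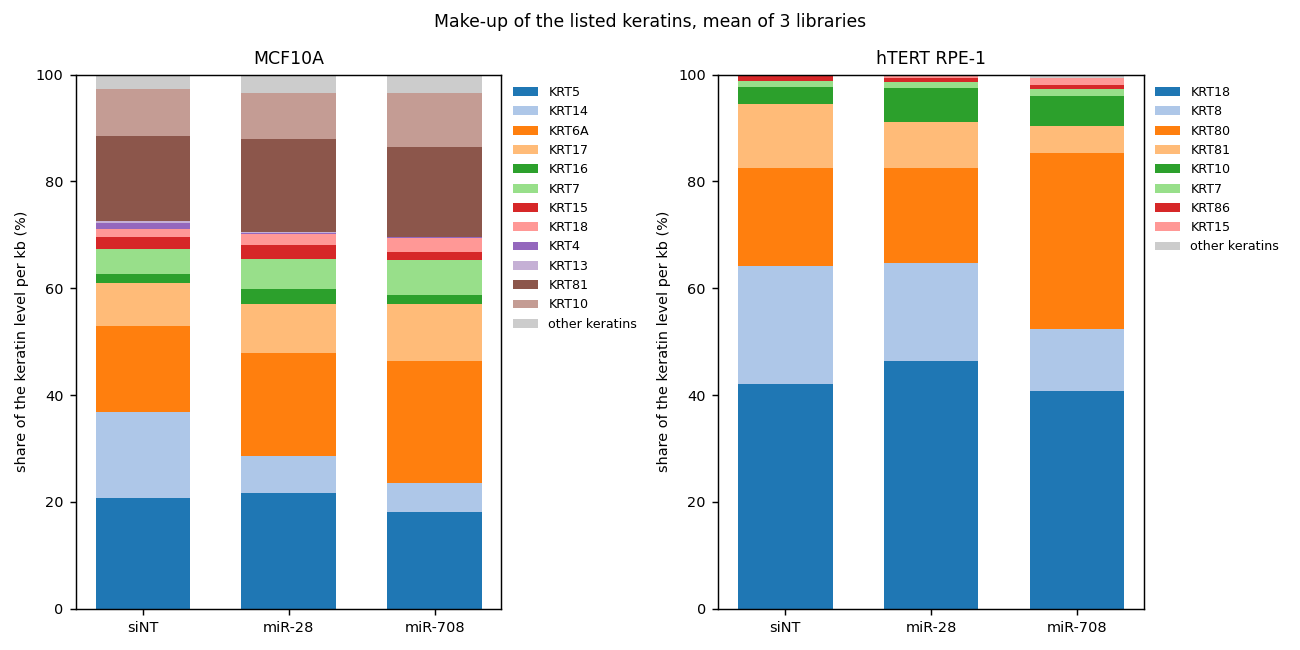
Share of each keratin (%) in the summed keratin level per kilobase, mean of 3 libraries, by treatment. In MCF10A, KRT14 goes from 16.1% with siNT to 7.08% and 5.46% with the mimics. In hTERT RPE-1, KRT8 goes from 22.2% to 18.4% and 11.6%. Shares depend on the length used, which for KRT8 is 6881 bases of merged exons against 1784 in its MANE Select transcript.

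The genes whose log2 values ran most like those of KRT4 over the 9 MCF10A libraries, among 11259 genes with a mean of at least 100, were FZD1 (Pearson's r = 0.993), NOTCH3 (0.990) and TPP2 (0.989). For KRT13 they were SLC33A1 (0.993), SPRR1B (0.992) and WIPF2 (0.990). These are descriptions over libraries that share treatment groups. KRT14 came in place 15 for KRT4 (r = 0.977), and KRT4 and KRT13 had r = 0.948 with each other. KRT18 had r = -0.09 with KRT4 and -0.12 with KRT13.

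Squamous differentiation is the programme in which KRT4 and KRT13 are made. Of 33 of its genes tested in MCF10A, 4 were called higher and 5 lower with miR-28, where 10.7% and 12.0% of all genes were. With miR-708 they were 4 and 7, beside 15.5% and 17.3%. Their median log2 fold changes were -0.01 and -0.39. SPRR3, a cornified envelope precursor of mucosal epithelium, read 876, 813 and 612 with siNT, 121, 207 and 96.6 with miR-28, and 231, 170.4 and 97.4 with miR-708. It fell in both (-2.49 and -2.27, SE 0.33, limma adjusted p = 7.23e-04 and 5.19e-04). TGM1, the transglutaminase that cross-links the envelope, fell too (-2.08 and -1.91, SE 0.32, adjusted p = 0.00155 and 0.00116). SPRR2E, a related envelope precursor, rose with miR-708 (2.38, SE 0.29, adjusted p = 1.91e-04) and was not called with miR-28 (0.80). In hTERT RPE-1, 5 of the 45 were tested, 1 was called higher with each mimic and 0 lower. The shares of all genes were 23.3% and 30.9% higher, and 23.5% and 31.2% lower.

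Of 34 regulators known to act on keratin genes tested in MCF10A, 4 were called higher and 8 lower with miR-28, where 10.7% and 12.0% of all genes were. With miR-708 they were 4 and 9, beside 15.5% and 17.3%. TP63, the master factor of basal epithelium, read 3297, 2950.4 and 3554 with siNT, 2059, 1373 and 1286 with miR-28, and 1816, 1231 and 1057 with miR-708. All mimic libraries were below the controls, and it fell (-1.08 and -1.29, SE 0.21, limma adjusted p = 0.00461 and 9.15e-04). NOTCH3, a Notch receptor, fell (-1.25 and -1.57, SE 0.16, adjusted p = 5.54e-04 and 6.32e-05). KLF4, a factor of epithelial differentiation, rose (0.95 and 1.36, SE 0.19, adjusted p = 0.0051 and 3.62e-04).

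In hTERT RPE-1, 8 of 20 regulators were called higher and 2 lower with miR-28, where 23.3% and 23.5% of all genes were, and 9 and 2 with miR-708, beside 30.9% and 31.2%. KLF4 read 6.04, 3.04 and 10.3 with siNT, 49.1, 352 and 168 with miR-28, and 423, 523 and 722 with miR-708. Its log2 fold changes were 4.39 and 6.31 (SE 0.60), from a control level near the value of 3 reads. They exceeded those in MCF10A by 3.44 and 4.95 (SE 0.63). With controls this low, KLF4 could enter the fit only through mimic libraries. The entry rule thus favoured a rise, so nothing is read from its calls, which are among the 8 and 9, and no p-value is given. JAG1, a Notch ligand, rose (1.10 and 1.18, SE 0.21, limma adjusted p = 0.00154 and 5.4e-04). NOTCH3 fell (-1.60 and -2.22, SE 0.37, adjusted p = 0.00498 and 4.04e-04), from a mean of 64.9. TP63 fell with miR-708 (-1.22, SE 0.40, adjusted p = 0.0209) from a low mean of 25.3, a call lost with libraries rescaled to the same total, and was not called with miR-28 (0.07).

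**Figure D5:**
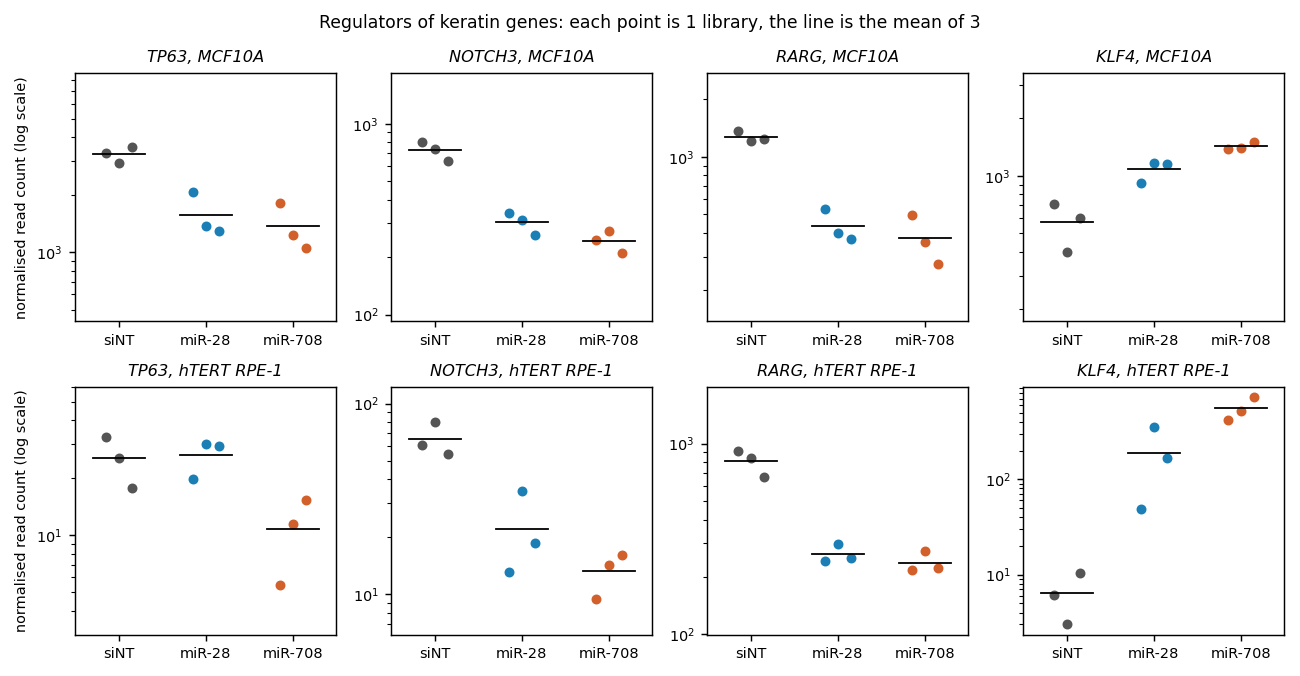
Normalised read counts (log scale) of TP63, NOTCH3, RARG and KLF4 in each line, by treatment. Each point is 1 library and each line the mean of 3. NOTCH3 and RARG lie lower and KLF4 higher in every mimic library of both lines, and TP63 lies lower with both mimics in MCF10A.

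Retinoids regulate keratin genes in many epithelia. Of 13 retinoid genes tested in MCF10A, 1 was called higher and 1 lower with miR-28, where 10.7% and 12.0% of all genes were. With miR-708 they were 2 and 2, beside 15.5% and 17.3%. RARG, the retinoic acid receptor of squamous epithelium, fell (-1.57 and -1.80, SE 0.20, limma adjusted p = 6.13e-04 and 1.19e-04), and STRA6, a retinol transporter, rose (1.69 and 0.98, SE 0.31, adjusted p = 0.00389 and 0.0312). In hTERT RPE-1, 3 of 14 were called higher and 5 lower with miR-28, where 23.3% and 23.5% of all genes were. With miR-708 they were 3 and 8, beside 30.9% and 31.2%. RARG fell (-1.60 and -1.75, SE 0.15, adjusted p = 2.11e-05 and 4.69e-06). TGM2, a retinoid-induced transglutaminase, fell (-2.71 and -3.80, SE 0.23, adjusted p = 1.06e-05 and 4.88e-07), as did CRABP2, which carries retinoic acid to the nucleus (-2.68 and -3.06, SE 0.23, adjusted p = 1.22e-05 and 2.11e-06).

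Among proteins that anchor or modify keratin filaments, 0 of 14 were called higher and 2 lower with miR-28 in MCF10A. The shares of all genes were 10.7% and 12.0%. With miR-708 the counts were 0 and 4, beside 15.5% and 17.3%. PKP2, a plakophilin of the desmosome, fell (-0.60 and -0.97, SE 0.11, limma adjusted p = 0.00421 and 1.41e-04), and PNN fell with miR-708 (-0.53, SE 0.12, adjusted p = 0.00666). In hTERT RPE-1, 3 of 12 were called higher and 4 lower with miR-28, where 23.3% and 23.5% of all genes were. With miR-708 they were 3 and 7, beside 30.9% and 31.2%. PPL, the linker periplakin, read 1045, 738 and 959.7 with siNT, 134, 78.7 and 155 with miR-28, and 38.4, 43.8 and 39.1 with miR-708. It fell (-2.93 and -4.45, SE 0.24, adjusted p = 7.84e-06 and 2.67e-07), and PKP2 fell (-1.11 and -1.71, SE 0.10, adjusted p = 1.76e-05 and 4.48e-07).

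Of 8 intermediate filament genes outside the family tested in MCF10A, 1 was called higher and 0 lower with miR-28. The shares of all genes were 10.7% and 12.0%. With miR-708 the counts were 1 and 2, beside 15.5% and 17.3%. LMNA, which encodes the nuclear lamins A and C, rose (0.37 and 0.57, SE 0.12, limma adjusted p = 0.0462 and 0.00405). SYNC, encoding syncoilin, fell with miR-708 (-1.58, SE 0.26, adjusted p = 9.68e-04). In hTERT RPE-1, 2 of 8 were called higher and 2 lower with miR-28, where 23.3% and 23.5% of all genes were. With miR-708 they were 3 and 1, beside 30.9% and 31.2%. SYNC fell (-1.12 and -2.15, SE 0.13, adjusted p = 9.38e-05 and 5.49e-07). SYNM, encoding synemin, rose (0.95 and 0.94, SE 0.14, adjusted p = 2.98e-04 and 1.54e-04), and NES, encoding nestin, rose with miR-708 (1.46, SE 0.52, adjusted p = 0.03) and was not called with miR-28 (0.49).

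Marker lists were used to check the labels. All 12 basal epithelial markers were listed in MCF10A, with summed values of 129977–158192 in the controls, 107763–123419 with miR-28 and 93170.3–122767 with miR-708. Of these, 0 were called higher and 3 lower with miR-28, where 10.7% and 12.0% of all genes were. With miR-708 they were 0 and 5, beside 15.5% and 17.3%. With libraries rescaled to the same total they were 1 and 2 with miR-28, and 2 and 5 with miR-708. ITGA6, a basal integrin, fell (-0.96 and -1.11, SE 0.19, limma adjusted p = 0.00552 and 0.00139). In hTERT RPE-1, 11 of the 12 were listed, 6 were called higher with each mimic, and 0 and 3 lower. COL17A1 had a control mean of 5.52 there, too low to enter the fit without mimic libraries, so the entry rule favoured a rise of it. Of all genes in that line, 23.3% and 23.5% were called higher and lower with miR-28, and 30.9% and 31.2% with miR-708. LAMA3, a chain of laminin-332, rose from a mean of 14.1 (3.13 and 5.38, SE 0.53, adjusted p = 8.86e-04 and 1.23e-05). Of the markers of retinal pigment epithelium, 9 of 13 were listed in hTERT RPE-1, MITF and OTX2 at means of 1908 and 951 with siNT, while RPE65, TYR, DCT and TTR were not listed. MITF fell (-0.80 and -0.56, SE 0.08, adjusted p = 3.38e-05 and 1.61e-04), as did OTX2 (-0.56 and -0.52, SE 0.11, adjusted p = 0.00208 and 0.00197). Over that list, 2 of 7 tested were called higher and 3 lower with miR-28, and 1 and 2 with miR-708. With libraries rescaled to the same total, 2 were called higher and 0 lower with miR-708, and the miR-708 calls of MITF and OTX2 were lost. In MCF10A 2 of 7 were called higher with miR-28 and 1 with miR-708, MITF among them (0.94 and 0.75, SE 0.18), and 0 lower.

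Of 19 luminal and simple epithelial markers tested in MCF10A, 1 was called higher and 0 lower with miR-28. The shares of all genes were 10.7% and 12.0%. With miR-708 the counts were 1 and 3, beside 15.5% and 17.3%. LCN2, a secreted protein of stressed epithelium, rose (1.25 and 2.32, SE 0.30, limma adjusted p = 0.0131 and 2.59e-04), and ESRP1, an epithelial splicing factor, fell with miR-708 (-1.20, SE 0.29, adjusted p = 0.00863). Of 8 tested in hTERT RPE-1, 2 were called higher and 2 lower with miR-28, where 23.3% and 23.5% of all genes were. With miR-708 they were 3 and 3, beside 30.9% and 31.2%. KRT8 had the deepest fall with each mimic. FOXA1, a luminal factor, rose (1.45 and 1.20, SE 0.21, adjusted p = 3.59e-04 and 6.4e-04), and CD24, a surface glycoprotein, fell with miR-708 (-1.99, SE 0.48, adjusted p = 0.00407) and was not called with miR-28 (-0.87).

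Fibroblast markers moved with the mimics in MCF10A. Of the 11, 6 were listed, and their summed value was 1853–3843 with siNT, 4007–12380.4 with miR-28 and 6765–18949.6 with miR-708. Of 5 tested, 3 were called higher and 1 lower with miR-28, where 10.7% and 12.0% of all genes were. With miR-708 they were 4 and 1, beside 15.5% and 17.3%. The 1 called lower was COL6A3, with means of 35.6 with siNT, 12.6 with miR-28 and 14.6 with miR-708 (log2 fold changes of -1.44 and -1.31). For each mimic, 0 were called lower with libraries rescaled to the same total. DCN, which made most of the sum, rose (1.51 and 2.07, SE 0.47, limma adjusted p = 0.0391 and 0.00647), and FBN1 rose (1.27 and 2.11, SE 0.29, adjusted p = 0.0105 and 3.76e-04). POSTN rose with miR-708 (2.78, SE 0.75, adjusted p = 0.0158), was not called with miR-28 (1.60), and was lowest in library 7 of each group. COL1A2, COL3A1, PDGFRA, LUM and THY1 were not listed, and PDGFRB had a control mean of 5.62. In hTERT RPE-1 all 11 were listed, 3 were called lower with miR-28 and 7 with miR-708, and 0 higher. The shares of all genes were 23.5% and 31.2% lower, and 23.3% and 30.9% higher. There COL1A1 fell (-2.17 and -3.86, SE 0.54, adjusted p = 0.00764 and 1.25e-04), as did PDGFRB (-0.94 and -2.09, SE 0.11, adjusted p = 6.43e-05 and 1.87e-07). COL3A1 fell with miR-708 (-2.97, SE 0.70, adjusted p = 0.00356) and was not called with miR-28 (-1.50). In whole cultures, fewer cells of a type and less RNA per cell cannot be told apart, and the part of any second cell type in the keratin values was not tested.

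Of the 9 endothelial and blood cell markers, 4 were tested in MCF10A, with 0 called higher and 2 lower with miR-28. The shares of all genes were 10.7% and 12.0%. With miR-708 the counts were 0 and 1, beside 15.5% and 17.3%. The summed value of these markers was 630.4–1083 over all groups. PECAM1 fell (-1.07 and -1.17, SE 0.20, limma adjusted p = 0.00414 and 0.00133), and CD14 fell with miR-28 (-0.87, SE 0.21, adjusted p = 0.0151). CDH5, VWF, PTPRC and CD3E were not listed. In hTERT RPE-1, 1 of 2 tested, KDR, was called higher with each mimic (1.15 and 1.92, SE 0.18, adjusted p = 5.62e-04 and 9.1e-06), and 0 lower. The shares of all genes were 23.3% and 30.9% higher, and 23.5% and 31.2% lower.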

How the data were processed

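PolyA+ RNAseq values of 18 libraries were used. Per the study's methods, adapters were removed, HISAT2 2.1.0 mapped the reads on hg38, and Partek Flow counted them per gene by an E/M method on a RefSeq annotation. The authors then ran DESeq2 for their own comparisons, which were not used here. The signal that the authors deposited per gene is their estimated count over the size factor (median of ratios) of that library. The columns of those comparisons hold ratios, p-values, FDR and least-squares means. Between 78.9% and 83.4% of low values were whole multiples (within 0.01) of the value of 1 read, so reads were not recovered and no count model was fitted. Depth was derived from that step. Floors of 3 reads cover counting error only.

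For each line, genes that reached 10 in 3 or more of its 9 libraries entered the fit of log2(value + 1) with limma 3.58.1 in R 4.3.3 (3 group means, moderated with a trend). A gene below 10 in most controls could enter only through mimic libraries, which favoured a rise. The counts of calls over the lists include such genes. The Benjamini-Hochberg adjustment ran over all genes of the line. The difference between lines used both fold changes and SEs with Welch–Satterthwaite degrees of freedom. The fit was tested on simulated data. Levels per kilobase used merged exons of GENCODE 44.

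The members, lists and tests were chosen with earlier results of these data known. The text names all 10 keratins, other keratins with a mean of at least 100, the 2 called genes with the largest change and such a mean from each list and contrast with siNT, and the 3 genes most like KRT4 and KRT13. KRT12, KRT34 and KRT7-AS were added after their values were seen. A gene that this rule names and 1 marker gene are not reported here.

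Samples were grouped by the labels. No source says what a replicate number marks, so same-numbered libraries were taken as pairs where all 3 correlations of their deviations from the group means exceeded 0.1. They were 0.263, 0.176 and 0.111 for siNT with miR-28 and 0.302, 0.115 and 0.155 for siNT with miR-708 (MCF10A), and 0.279, 0.198 and 0.134 for the mimics in hTERT RPE-1. The alternatives were library size scaling, a pseudocount of 10, no filter, only the groups compared, no trend, a replicate block, each library left out, and transcript length.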

Additional observations from a re-analysis of the deposited data

Results flagged for a closer look

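The responses to the mimics differed between the lines for each of the 3 keratins listed in both, by the test of the difference itself (hTERT RPE-1 minus MCF10A, over 13339 genes). For KRT15 the difference in log2 fold change was 2.29 with miR-28 and 4.34 with miR-708, with opposite signs in the lines. Its value with miR-28 in MCF10A was -0.30 and its libraries there overlapped the controls, so the opposite sign is clear for miR-708 only. For KRT7 it was -1.26 and -1.65, and for KRT18 -1.18 and -1.98. KRT7 and KRT18 fell in hTERT RPE-1 and had log2 fold changes between -0.24 and 0.03 in MCF10A. KRT15 had few reads in the hTERT RPE-1 controls, with values of 20.3 to 29.3. All 6 differences kept their sign and stayed called under the 23 alternatives run for each. The sets of libraries of the lines were scaled apart, and the cause was not tested.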

How the results depend on the processing

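Of 726 log2 fold changes of the keratins under an alternative, 677 kept their direction and their side of the threshold, 25 lost the call, 10 gained it and 14 changed sign without a call in either setting. With library size scaling the log2 fold change of KRT18 with miR-28 in MCF10A was 0.0797, the difference of KRT17 between the mimics was 0.0257, and 4654 genes were called between the mimics in hTERT RPE-1. Without the trend, 150 genes were called between the mimics in MCF10A. With a library left out, KRT18 in MCF10A ranged from -0.124 to 0.0334 (miR-28), -0.0394 to 0.101 (miR-708) and -0.00801 to 0.149 (between the mimics). Between the mimics in MCF10A, KRT17 ranged from -0.106 to 0.0652, KRT7 from -0.16 to 0.13 and KRT13 from -1.23 to 0.10, the last without the miR-708 library 9. The genes called in MCF10A then ranged from 1949 (without the miR-28 library 8) to 3950.0 with miR-28, where 3347 were called with all libraries, and 2113, 2099 and 2193 were called without the siNT libraries 8 and 9 and the miR-28 library 9. With miR-708 they ranged from 3174 (without the miR-708 library 9) to 5483, where 4835 were called. Between the mimics 112 to 368 genes and 1 to 3 of the keratins were called in MCF10A, and 1512 to 4084 genes and 1 to 2 of the keratins in hTERT RPE-1. The lowest gene counts were without the miR-708 library 9 and the miR-708 library 3. With the replicate block, the miR-28 call of KRT17 in MCF10A was gained, and no other keratin call changed in the paired contrasts. The mimic libraries in MCF10A did not all pass the pairing limit against each other (correlations of 0.121, 0.025 and 0.177), though each mimic was paired with siNT, and there the replicate block called 643 genes and 4 keratins, KRT16 with KRT4, KRT15 and KRT14. With KRT15 per kilobase of its MANE Select transcript, a length added after the data were seen, its share in the MCF10A controls was 5.02% in place of 2.21%. The causes were not tested. Depth limits genes near 3 reads, such as KRT34.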
